A study of Mus musculus with 2 samples.

Results

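The 10 genes described here encode the transforming growth factor-β (TGF-β) ligands (Tgfb1, Tgfb2, Tgfb3), the TGF-β receptors (Tgfbr1, Tgfbr2, Tgfbr3) and the latent TGF-β binding proteins (Ltbp1, Ltbp2, Ltbp3, Ltbp4). They were chosen by name and are 10 of the 25814 genes with counts in at least 1 of 2 single-cell RNA libraries. All 10 had counts in both libraries. The cells had been sorted for a Nestin-GFP reporter, in which regulatory sequences of the Nestin gene drive GFP. They came from mice of about 6 weeks, from brain for 1 library and lung for the other. C57BL/6 is the strain on the labels, which the methods list among the mice bred in-house, but they give a CD1 or mixed CD1 and C3H background for the wild-type mice that the transgenic lines were bred with, and the authors regarded the labelling in lung as not specific to neural cells. Each tissue gave 1 library, so no difference has a replicate check and no p-value was computed. Tissue and library cannot be told apart in any comparison between brain and lung.

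A level is the sum of unique molecular identifiers (UMIs, 1 per captured transcript) over the cells of a class, scaled as counts-per-million of the UMIs of that class (CPM). The numbers in parentheses after a level or a ratio are its exact 95% interval, which covers counting error only. A member was counted as higher or lower where the ratio of the CPM was at least 2 or at most 0.5 and the interval excluded 1, among genes with at least 20 UMIs over both classes. Since only the 3′ ends of transcripts were counted, levels were compared between classes for a gene and never between genes.

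The filter left 4151 of 4640 brain cells (median 4209 UMIs) and 5608 of 5981 lung cells (median 5585 UMIs), and 15 barcodes were found in both libraries. Cells were assigned to classes by the mean score of marker lists, which held none of the 10 genes, and 11.8% of brain cells and 19.8% of lung cells were left ungated. The lung library held 2021 pericyte-like, 524 myofibroblast-like, 703 lung fibroblast-like, 433 smooth muscle-like, 616 endothelial-like and 107 T lymphocyte-like cells. The T lymphocyte-like cells had Rag1 and Cd8b1, genes of immature T cells of the thymus, among their 10 leading genes. Whether these cells came from lung tissue was not tested. The lung fibroblast-like class joins 661 cells of an adventitial list, with a median of 7 of 9 adventitial and 3 of 10 matrix fibroblast markers, and 42 cells of a matrix fibroblast list, so its levels are mainly those of the adventitial list. A pericyte-like cell had a median of 9 of 10 pericyte markers and 2 of 9 smooth muscle markers. A myofibroblast-like cell had a median of 4 of 8 myofibroblast markers and 3 of 9 smooth muscle markers. The smooth muscle-like gate was mixed, since its cells lay in clusters of smooth muscle and of myofibroblast genes, and it enters no ratio. The brain classes compared were 173 mural-like, 323 endothelial-like, 67 fibroblast-like, 745 astroglia-like and 1729 neuroblast-like cells.

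TGF-β is secreted in a latent form, in which the mature ligand stays bound to its own propeptide. Latent TGF-β binding proteins tie this complex to fibrillin microfibrils in the matrix, from which integrins and proteases release the ligand. The free ligand binds the type II receptor (Tgfbr2), which recruits and phosphorylates the type I receptor (Tgfbr1, also called ALK5), which in turn phosphorylates Smad2 and Smad3. Tgfbr3 (betaglycan) is a coreceptor that presents ligand, Tgfb2 in particular. In the lung the pathway is known for its part in alveolar and elastic fibre development and in fibrosis.

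The promoters of Tgfb1, Tgfb2 and Ltbp2 are shown, because these 3 members were higher in lung pericyte-like than in lung fibroblast-like cells. RefSeq promoter windows (250 bases before to 50 after the start, build GRCm38.p6) were found for 8 of the 10 members, all but Tgfb3 and Tgfbr3. Capitals mark matches to the GC box GGGCGG and the TATA box TATAAA on either strand, and the sequences run 5′ to 3′ on the strand of the gene.
Tgfb1, chr7:25686752-25687051, plus strand: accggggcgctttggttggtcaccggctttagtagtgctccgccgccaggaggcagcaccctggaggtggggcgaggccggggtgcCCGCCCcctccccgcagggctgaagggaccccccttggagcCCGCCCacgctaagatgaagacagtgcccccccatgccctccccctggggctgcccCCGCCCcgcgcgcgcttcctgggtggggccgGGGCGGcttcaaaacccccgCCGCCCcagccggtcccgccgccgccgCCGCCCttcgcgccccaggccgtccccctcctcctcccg
Tgfb2, chr1:186705940-186706239, minus strand: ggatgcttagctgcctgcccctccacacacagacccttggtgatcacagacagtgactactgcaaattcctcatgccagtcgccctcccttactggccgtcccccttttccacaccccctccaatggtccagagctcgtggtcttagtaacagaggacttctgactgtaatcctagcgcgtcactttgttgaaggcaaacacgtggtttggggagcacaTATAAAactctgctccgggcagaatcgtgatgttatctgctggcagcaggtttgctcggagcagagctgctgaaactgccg
Ltbp2, chr12:84876442-84876741, minus strand: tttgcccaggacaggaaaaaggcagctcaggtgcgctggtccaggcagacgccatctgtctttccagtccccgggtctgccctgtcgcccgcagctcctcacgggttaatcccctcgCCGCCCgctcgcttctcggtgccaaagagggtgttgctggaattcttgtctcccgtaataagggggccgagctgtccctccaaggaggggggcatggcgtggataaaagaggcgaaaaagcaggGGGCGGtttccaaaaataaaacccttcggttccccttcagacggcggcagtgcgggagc
The Tgfb1 window held 6 GC box matches and no TATA box match, with 77.0% G and C. The Tgfb2 window held 1 TATA box match and no GC box match, with 54.3% G and C. The Ltbp2 window held 2 GC box matches and no TATA box match, with 61.0% G and C. A GC box match occurred in 35.7% and a TATA box match in 13.6% of all 32851 promoter windows of this length. A match is a description of the letters only.

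The members lie on 8 chromosomes of build GRCm38 (the mm10 assembly used by the authors) in the GENCODE M21 annotation. The ligand genes are Tgfb1 at chr7:25687002-25705077 on the plus strand, Tgfb2 at chr1:186622792-186705989 on the minus strand and Tgfb3 at chr12:86056745-86079041 on the minus strand. The receptor genes are Tgfbr1 at chr4:47353222-47414931 (plus), Tgfbr2 at chr9:116084293-116175360 (minus) and Tgfbr3 at chr5:107106570-107289629 (minus). The latency genes are Ltbp1 at chr17:75005568-75392512 (plus), Ltbp2 at chr12:84783212-84876532 (minus), Ltbp3 at chr19:5740904-5758532 (plus) and Ltbp4 at chr7:27305136-27337692 (minus). The last 1000 bases of Tgfb3 overlap Ttll5 on the opposite strand. The sources used here do not state whether counting used the strand, so the counts of Tgfb3 and Ltbp3 are less certain than those of the other members.

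**Figure D1:**
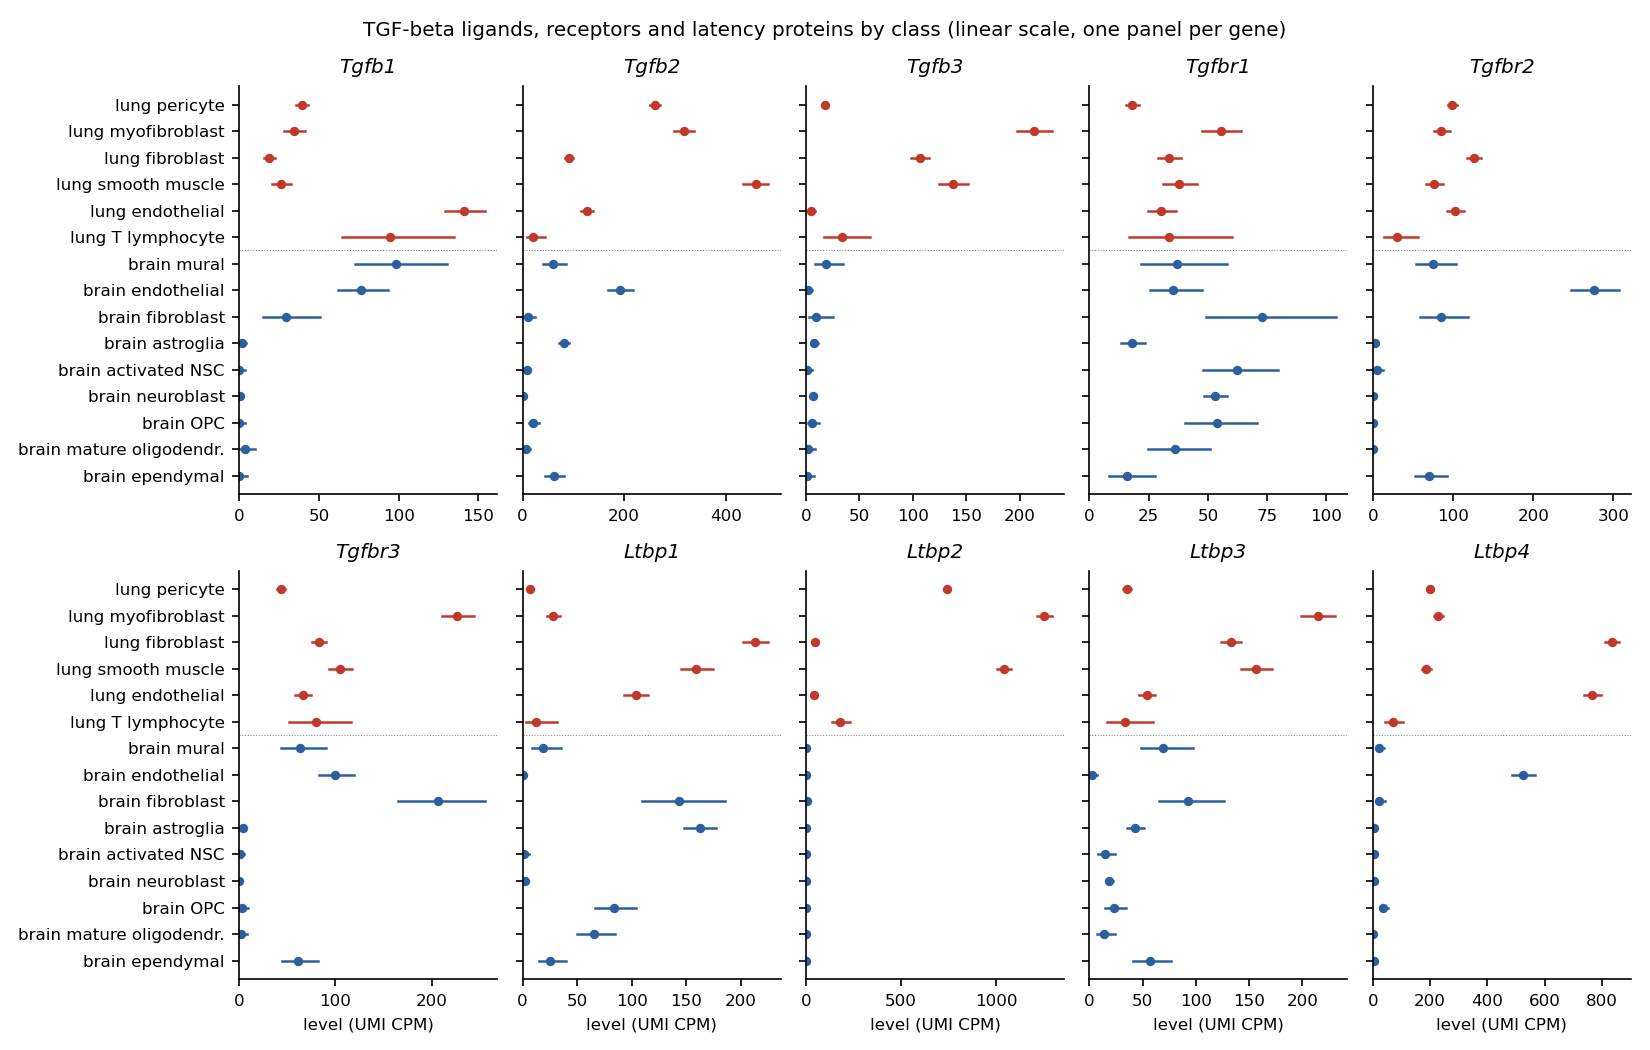
Level of each of the 10 members (UMI CPM, linear axis from 0, a panel per gene with its own scale) in the 15 classes of at least 50 cells, 6 from the lung library (red) and 9 from the brain library (blue). Points are sums over cells and bars are exact 95% counting intervals. Ltbp2 reached 1255 CPM in lung myofibroblast-like cells and at most 7.29 CPM in any brain class shown.

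Among the ligands, Tgfb1 was highest in vascular and lymphoid classes and Tgfb2 in contractile mesenchyme. Tgfb3 was highest in myofibroblasts, the mixed smooth muscle-like gate and fibroblasts. Tgfb1, the main ligand of immune and vascular cells, stood at 141 (129 to 154) CPM in lung endothelial-like cells, 94.7 (64.4 to 134) in T lymphocyte-like cells, 39.2 (35.5 to 43.1) in pericyte-like cells, 34.3 (28.2 to 41.3) in myofibroblast-like cells and 18.6 (15.3 to 22.4) in lung fibroblast-like cells. In brain it stood at 98.2 (72.4 to 130.2) CPM in mural-like cells, 76.3 (61.8 to 93.3) in endothelial-like cells and 29.2 (15.1 to 50.9) in fibroblast-like cells. Neuroblast-like and astroglia-like cells were near 0, at 0.578 and 2.04 CPM. Activated NSC-like, oligodendrocyte progenitor-like and ependymal-like cells had 0 UMIs, which allows up to 2.92, 3.1 and 3.98 CPM (3 UMIs per class). From lung endothelial-like through brain mural-like and lung T lymphocyte-like to brain endothelial-like cells, each interval overlapped the next. Small macrophage-like classes lay above all of these, at 295 (224 to 382) CPM in 44 brain cells and 369 (263 to 505) CPM in 17 lung cells.

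Tgfb2 is the ligand that depends most on Tgfbr3 for binding. It was at 318 (299 to 338) CPM in lung myofibroblast-like cells, 260.0 (250.4 to 269.9) in pericyte-like cells, 126 (115 to 138) in endothelial-like cells and 90.9 (83.5 to 98.8) in lung fibroblast-like cells, and none of these intervals overlapped. The mixed smooth muscle-like gate had 459 (434 to 484) CPM. In brain the endothelial-like cells were highest at 191 (168 to 217) CPM, followed by astroglia-like cells at 81.2 (71.2 to 92.2), ependymal-like cells at 61 (44.7 to 81.4) and mural-like cells at 59.3 (39.7 to 85.2), and these last 3 intervals overlapped from each class to the next. Neuroblast-like cells had 1.27 (0.634 to 2.27) CPM.

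The level of Tgfb3 was 213 (198 to 229.9) CPM in lung myofibroblast-like cells and 107 (98.6 to 115) in lung fibroblast-like cells. Between them lay the mixed smooth muscle-like gate, at 137 (124 to 152) CPM. The pericyte-like cells had 17.4 (14.9 to 20.1), the endothelial-like cells 5.1 (3.02 to 8.06) and the T lymphocyte-like cells 33.6 (16.8 to 60.1) CPM. In brain no class of at least 50 cells exceeded the 18.4 (8.42 to 35) CPM of mural-like cells, which rested on 9 UMIs.

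T lymphocytes are not known as a source of latency proteins, and their level of each Ltbp gene is given beside those of the other lung classes. It was uneven over cells: 11 of 107 cells had an Ltbp2 UMI, and 3 cells held 42 of the 59 UMIs. Without the cells called doublets, 51 Ltbp2 UMIs remained in 9 of 105 cells. Free RNA, doublets and expression cannot be told apart in these cells, so no level was subtracted or read as background on their account. Their median depth was 1909 UMIs per cell, against 5309 in pericyte-like, 5401 in endothelial-like and 9127 in lung fibroblast-like cells.

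Among the receptors, the type II receptor and betaglycan were near 0 in the brain astroglia-like, activated NSC-like, neuroblast-like and oligodendrocyte classes, where the type I receptor was present. Tgfbr1 stood between 15.9 CPM (brain ependymal-like) and 72.9 CPM (brain fibroblast-like) over the 15 classes. Neuroblast-like cells had 52.9 (48.2 to 58) CPM and lung myofibroblast-like cells 55.3 (47.5 to 64.1) CPM. Pericyte-like cells, at 18 (15.6 to 20.8) CPM, were the lowest lung class. Brain microglia-like cells were far above the rest, at 699 (586 to 827) CPM in 44 cells.

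Tgfbr2, which binds the ligand, was highest in brain endothelial-like cells at 276 (247 to 306) CPM. The lung classes followed, with 126 (118 to 136) in lung fibroblast-like, 103 (92.3 to 114) in endothelial-like, 99.3 (93.4 to 105) in pericyte-like and 85.6 (75.9 to 96.3) CPM in myofibroblast-like cells. From lung endothelial-like down to lung T lymphocyte-like cells, the intervals of 8 classes in a row overlapped from each class to the next. Neuroblast-like cells had 0.231 (0.028 to 0.835) CPM, and oligodendrocyte progenitor-like and mature oligodendrocyte-like cells had 0 UMIs, which allows up to 3.1 and 3.38 CPM. Ependymal-like cells, at 70.3 (52.7 to 92) CPM, were the one neural class of the brain above 10 CPM.

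Tgfbr3 was at 227 (211 to 244) CPM in lung myofibroblast-like and 207 (165 to 255) CPM in brain fibroblast-like cells, with overlapping intervals. It was at 83 (75.9 to 90.6) CPM in lung fibroblast-like, 66 (57.8 to 75.1) in lung endothelial-like and 43.5 (39.6 to 47.7) in pericyte-like cells. Brain endothelial-like cells had 99.6 (82.9 to 119) CPM and mural-like cells 63.4 (43.1 to 90.0) CPM. Astroglia-like and neuroblast-like cells were at 4.08 and 0.116 CPM.

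Among the latency proteins, Ltbp2 was high in pericyte-like and myofibroblast-like cells, Ltbp3 in myofibroblast-like and lung fibroblast-like cells, and Ltbp1 and Ltbp4 in lung fibroblast-like cells. This summary leaves out the mixed smooth muscle-like gate. Ltbp2 is a fibrillin-binding microfibril protein which, unlike the other members of its family, does not bind latent TGF-β. It reached 1255 (1217 to 1294) CPM in myofibroblast-like and 742 (726 to 759) CPM in pericyte-like cells. The mixed smooth muscle-like gate had 1041 (1004 to 1079) CPM. The 46.1 (40.9 to 51.8) CPM of lung fibroblast-like and 41.4 (34.9 to 48.7) CPM of endothelial-like cells lay below the 180.3 (137 to 233) CPM of T lymphocyte-like cells. Without the cells called doublets these levels were 38.1 (33.3 to 43.4), 16.8 (12.7 to 21.8) and 162 (120.3 to 212) CPM. In cells thinned to 1000 UMIs, an Ltbp2 UMI was found in 68.8% (64.7 to 72.8) of 523 myofibroblast-like, 46.6% (44.4 to 48.8) of 2014 pericyte-like, 6.6% (2.7 to 13.1) of 106 T lymphocyte-like, 4.42% (3.02 to 6.21) of 702 lung fibroblast-like and 2.45% (1.38 to 4.02) of 611 endothelial-like cells. The shares without thinning were 98.7%, 85.3%, 10.3%, 20.8% and 10.7% in the same order. The whole brain library had 6 Ltbp2 UMIs in 4151 cells.

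Ltbp1, which anchors latent TGF-β1, was at 213 (202 to 225) CPM in lung fibroblast-like and 103 (93.1 to 115) CPM in lung endothelial-like cells. Myofibroblast-like cells had 28.1 (22.7 to 34.5) CPM. Pericyte-like cells had 6.51 (5.07 to 8.24) CPM and T lymphocyte-like cells 12.2 (3.33 to 31.3) CPM. Brain astroglia-like cells had 162 (148 to 177) CPM, fibroblast-like cells 143 (109 to 185) and oligodendrocyte progenitor-like cells 83.8 (66.6 to 104). Brain endothelial-like cells had 0 Ltbp1 UMIs among 1244606, which allows up to 2.41 CPM.

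Ltbp3, which can also carry latent TGF-β, was at 214 (199 to 231) CPM in myofibroblast-like and 133 (124 to 143) CPM in lung fibroblast-like cells. The mixed smooth muscle-like gate lay between them, at 157 (143 to 172) CPM. Endothelial-like cells had 53.9 (46.5 to 62.1) CPM, pericyte-like cells 35.3 (31.8 to 39.1) CPM and T lymphocyte-like cells 33.6 (16.8 to 60.1) CPM. In brain it was at 92.3 (65.3 to 127) CPM in fibroblast-like, 69.6 (48.2 to 97.2) in mural-like and 2.41 (0.497 to 7.04) in endothelial-like cells.

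Ltbp4 is needed for elastic fibre assembly in the lung. It was at 834 (812 to 858) CPM in lung fibroblast-like, 766 (738 to 796) in endothelial-like, 229 (213 to 246) in myofibroblast-like and 199 (191 to 208) CPM in pericyte-like cells. In brain the endothelial-like cells had 525 (485 to 566) CPM, and every other brain class of at least 50 cells was at or below the 37.3 (26.1 to 51.6) CPM of oligodendrocyte progenitor-like cells.

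The first comparison within lung mesenchyme set pericyte-like against lung fibroblast-like cells. Of the 10 members, 3 were higher in pericyte-like cells (Tgfb1, Tgfb2 and Ltbp2), 4 were lower (Tgfb3, Ltbp1, Ltbp3 and Ltbp4), and the 3 receptors were within 2-fold. Among all 12835 genes with at least 20 UMIs, 17.1% were higher and 14.5% lower by the same limit (31.7% in all). The Ltbp2 ratio was 16.1 (14.3 to 18.2). The Tgfb2 ratio was 2.86 (2.61 to 3.14) and the Tgfb1 ratio 2.1 (1.71 to 2.62). Lung fibroblast-like cells were higher in Ltbp1 by 32.7 (25.7 to 42.3)-fold, in Tgfb3 by 6.14 (5.21 to 7.28)-fold, in Ltbp4 by 4.19 (3.99 to 4.42)-fold and in Ltbp3 by 3.77 (3.33 to 4.27)-fold. The ratios of the receptors were 0.54 (0.44 to 0.66) for Tgfbr1, 0.79 (0.72 to 0.86) for Tgfbr2 and 0.52 (0.46 to 0.60) for Tgfbr3. Against the 42 cells of the matrix list alone, a setting chosen after seeing the data, the ratio was 3.07 for Ltbp2, 1.53 for Tgfb1 and 1.2 for Tgfb2, so that Tgfb1 and Tgfb2 no longer passed 2-fold, whereas Tgfbr2 passed it as lower at 0.47. The folds by which the fibroblasts were higher were then 18.0 for Ltbp1, 5.06 for Tgfb3, 2.39 for Ltbp3 and 2.04 for Ltbp4, and the ratios of Tgfbr1 and Tgfbr3 were 0.70 and 0.99. The median log2 ratio was -0.91 over the members and 0.29 over all genes. Relative to that median of all genes, the log2 ratio of Tgfb1 fell from 1.07 to 0.79, under 2-fold, and those of Tgfbr1 (-1.19) and Tgfbr3 (-1.22) passed 2-fold.

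Myofibroblast-like cells differed from lung fibroblast-like cells by higher Ltbp2, Tgfb2 and Tgfbr3 and lower Ltbp1 and Ltbp4. Over 11877 genes, 12.1% were higher and 10.5% lower (22.6% in all), against 5 of the 10 members. Ltbp2 was higher by 27.2 (24.1 to 30.8)-fold, Tgfb2 by 3.5 (3.15 to 3.89)-fold and Tgfbr3 by 2.73 (2.43 to 3.07)-fold. The ratio was 0.13 (0.11 to 0.16) for Ltbp1 and 0.27 (0.25 to 0.30) for Ltbp4. Tgfb3 lay just under the limit at 2.0 (1.79 to 2.23). Tgfb1, Tgfbr1, Tgfbr2 and Ltbp3 were between 0.68 and 1.84. Against the cells of the matrix list alone, the ratio was 5.19 for Ltbp2 and 5.16 for Tgfbr3, and those of Tgfb2 (1.47), Tgfb1 (1.34) and Ltbp4 (0.56) were within 2-fold. The Ltbp1 ratio was 0.24. Tgfb3 (2.43), Tgfbr1 (2.16) and Ltbp3 (2.54) then passed 2-fold as higher and Tgfbr2 (0.40) as lower in myofibroblast-like cells. The median log2 ratio was 0.80 over the members and 0.25 over all genes.

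Between the contractile classes, no member was higher in pericyte-like than in myofibroblast-like cells and 5 of 10 were lower, where 10.9% of 12263 genes were higher and 11.6% lower (22.5% in all). Myofibroblast-like cells were higher in Tgfb3 by 12.3 (10.4 to 14.5)-fold, in Ltbp3 by 6.07 (5.35 to 6.9)-fold, in Tgfbr3 by 5.21 (4.63 to 5.87)-fold, in Ltbp1 by 4.32 (3.13 to 6.0)-fold and in Tgfbr1 by 3.07 (2.49 to 3.78)-fold. The ratios of Tgfb1, Tgfb2, Tgfbr2, Ltbp2 and Ltbp4, from 0.59 to 1.16, were within 2-fold. The median log2 ratio was -1.19 over the members and 0.01 over all genes. These 3 comparisons share their classes, so their ratios are not independent of each other.

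**Figure D2:**
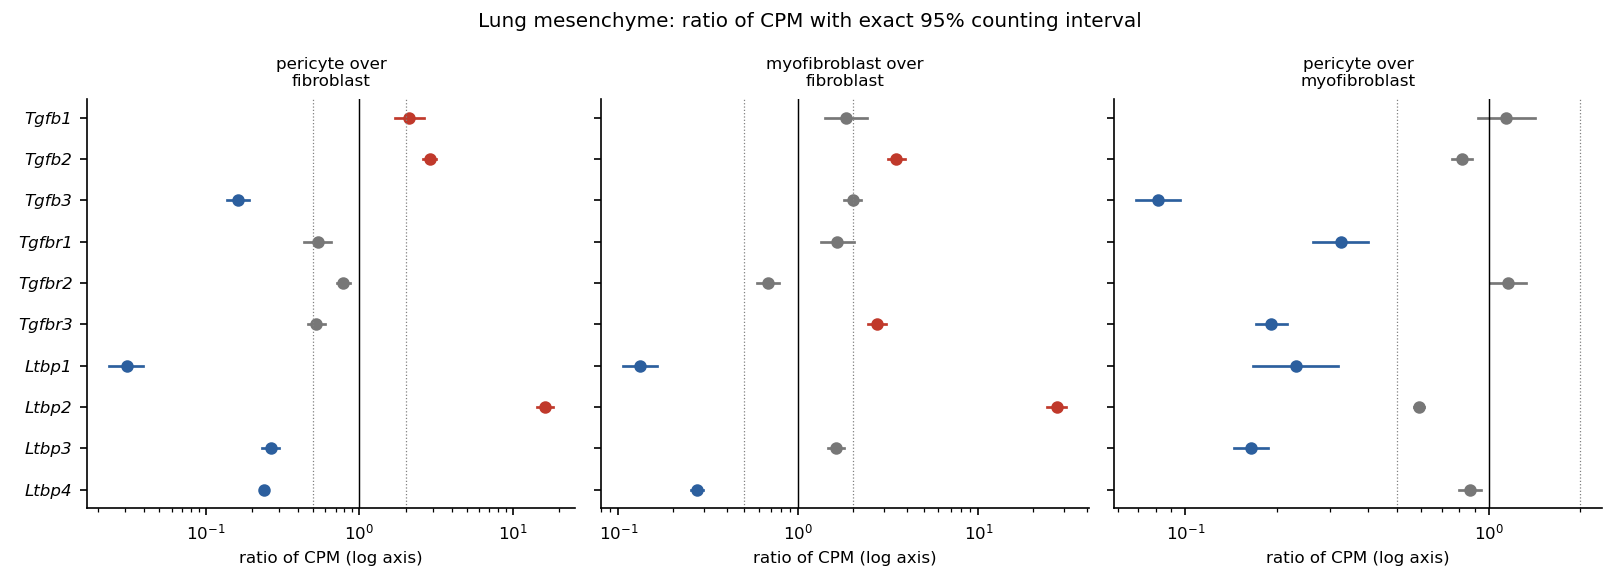
Ratio of CPM between lung mesenchymal classes for each of the 10 members (log axis), with exact 95% counting intervals as bars, the line at 1 and dotted lines at 0.5 and 2. Red points passed 2-fold as higher and blue points as lower in the first class. Ltbp2 lies at 16.1 and 27.2 against lung fibroblast-like cells, and Tgfb3 lies at 0.08 for pericyte-like against myofibroblast-like cells.

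The joined fibroblast class was not uniform. Of the 661 cells of the adventitial list, 21 lay in cluster 12, which held 26 cells led by the cardiac muscle genes Myl7, Tnnt2 and Tnni3. The 661 cells of the adventitial list had 855 (831 to 879) CPM of Ltbp4 and 218 (206 to 229.9) CPM of Ltbp1, whereas the 42 cells of the matrix list had 407 (335 to 489.7) and 117 (80.2 to 165) CPM. The matrix list cells had more Tgfb2, at 216 (165 to 279) against 85 (77.7 to 92.8) CPM, and more Tgfbr2, at 212 (161 to 275) against 122 (113 to 132) CPM. Their Ltbp2 level was 242 (187 to 308) CPM, against 36.9 (32.1 to 42.2) CPM in cells of the adventitial list.

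Clusters of the lung library, built without the 10 genes, showed differences that the gates average over. These clusters were singled out after their values were seen. Clusters 0 and 1, which held 804 and 913 of the 2021 pericyte-like cells, had 821 (796 to 847) and 680.1 (656 to 705) CPM of Ltbp2. Cluster 2, an unnamed cluster of 113 cells led by Rgs5, Steap4 and Procr, had 25.7 (14 to 43.1) CPM of Ltbp2 and 78.9 (57.1 to 106) CPM of Tgfb2. Its Ltbp2 level lay below those of clusters 0 and 1, and Rgs5 and Kcnj8, among its 10 leading genes, are pericyte and vascular smooth muscle markers in other tissues. Of the cells of cluster 2, 72 were ungated, 22 smooth muscle-like and 17 pericyte-like, so the pericyte-like ratios describe mainly clusters 0 and 1. The Tgfb2 level of cluster 2 lay below the 126 (115 to 138) CPM of lung endothelial-like cells.

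The smooth muscle-like gate drew most of its cells from clusters 6, 16, 15 and 9. Cluster 15 (76 cells led by Actc1, Grp and Fbxl22, with Cnn1 and Acta2 among its 10 leading genes) had 744 (666 to 828) CPM of Ltbp1 and 55.3 (35.8 to 81.7) CPM of Ltbp2. Cluster 16 (186 cells led by Fabp7, Adora1 and Wisp2) had the opposite pattern, with 1942 (1855 to 2031) CPM of Ltbp2, 40.0 (28.5 to 54.7) CPM of Ltbp1 and 757 (703 to 813) CPM of Tgfb2. The smooth muscle-like averages of 159 CPM for Ltbp1 and 1041 CPM for Ltbp2 therefore describe neither cluster.

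Of the myofibroblast-like clusters, cluster 6 (563 cells led by Scgb3a2, Aspn and Fgf18) exceeded cluster 9 (451 cells led by Htra1, Prokr2 and Pdgfra) in Tgfb2, at 449 (427 to 471) against 231 (214 to 248) CPM, and in Tgfb3, at 247 (231 to 264) against 149.7 (137 to 164) CPM. The secretory airway genes Scgb3a2 and Scgb1a1 were high in cluster 6 too, and the part of free airway RNA in these values was not tested. Among fibroblasts, cluster 10 (541 cells led by Gpc3, Serpinf1 and Cpz) had 897 (871 to 923) CPM of Ltbp4 and 160.2 (149 to 172) of Ltbp1, and cluster 19 (99 cells led by Ptn, C3 and Mmp9) had 395 (353 to 440.1) and 578 (527 to 632) CPM. Tgfb3 was also lower in cluster 19, at 26.5 (16.6 to 40.1) against 121 (112 to 131) CPM.

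The endothelial-like cells also differed by cluster. Cluster 3 (401 cells led by Vwf, Lyve1 and Stmn2) had 1033 (991 to 1076) CPM of Ltbp4, cluster 4 (143 cells led by Scn7a, Clec1a and Ctla2a) 286 (252 to 322) and cluster 17 (78 cells led by Fabp4, Rbp7 and Cd300lg) 409.7 (349.6 to 477). Tgfbr2 was at 293 (243 to 351) CPM in cluster 17 against 66.5 (56.2 to 78.2) in cluster 3 and 106 (86 to 129) in cluster 4. The Tgfb1 levels of these clusters were 145 (129 to 162), 129 (107 to 155) and 142 (107 to 183) CPM, with overlapping intervals.

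**Figure D3:**
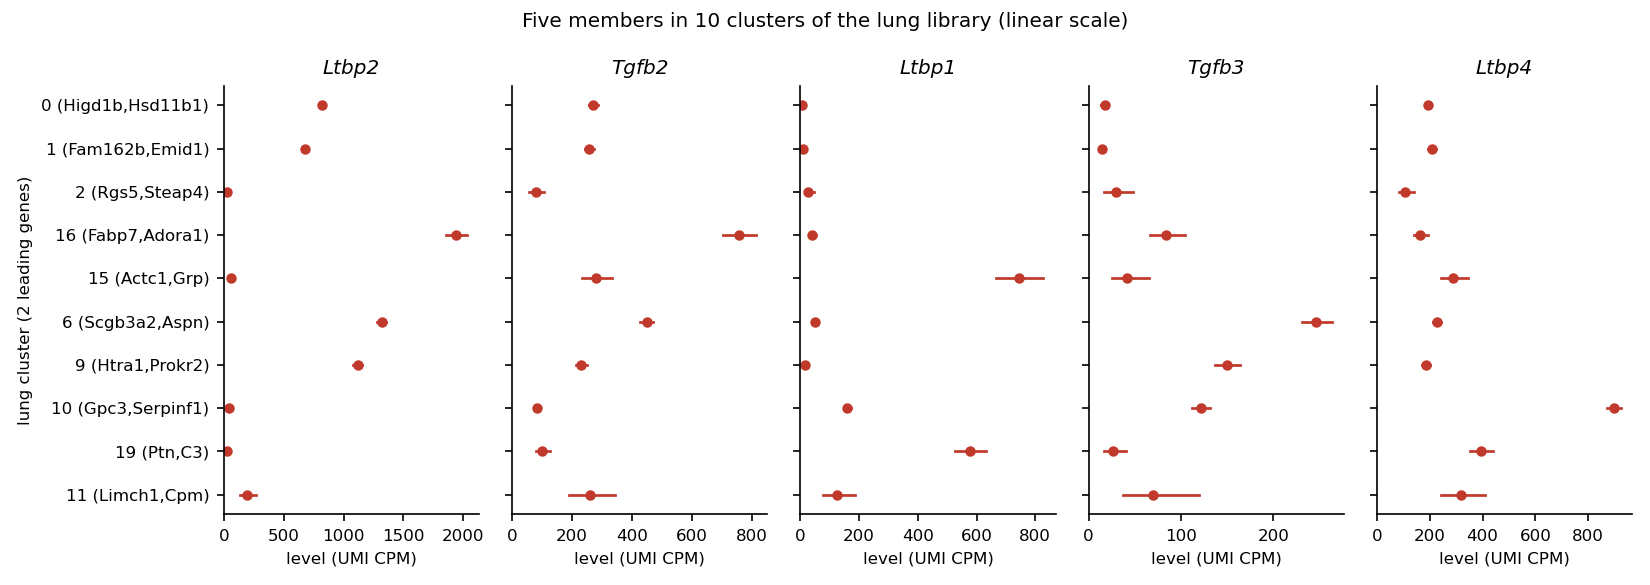
Levels of Ltbp2, Tgfb2, Ltbp1, Tgfb3 and Ltbp4 (UMI CPM, linear axes from 0) in 10 lung clusters, each named by its number and its 2 leading genes, with exact 95% counting intervals as bars. Cluster 16 has the highest Ltbp2 at 1942 CPM and cluster 15 the highest Ltbp1 at 744 CPM, whereas cluster 2 has 25.7 CPM of Ltbp2.

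The next comparisons set mural cells, the contractile cells around small vessels, against the endothelial cells of the same library. In lung, 3 of 10 members were higher in pericyte-like cells (Tgfb2, Tgfb3 and Ltbp2) and 3 were lower (Tgfb1, Ltbp1 and Ltbp4), where 15.6% of 12515 genes were higher and 15.1% lower (30.7% in all). Ltbp2 was higher by 17.9 (15.2 to 21.3)-fold and Tgfb2 by 2.06 (1.86 to 2.28)-fold. With the cells called doublets removed, the Ltbp2 ratio was 44.2. The Tgfb3 ratio was 3.4 (2.09 to 5.87), on 18 endothelial-like UMIs. Endothelial-like cells were higher in Ltbp1 by 15.9 (12.3 to 20.9)-fold, in Ltbp4 by 3.85 (3.64 to 4.08)-fold and in Tgfb1 by 3.6 (3.16 to 4.12)-fold. The receptors were within 2-fold, with ratios of 0.60 (0.47 to 0.77), 0.97 (0.86 to 1.09) and 0.66 (0.56 to 0.77) for Tgfbr1, Tgfbr2 and Tgfbr3.

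In brain, 7 of the 10 members passed the limit of 20 UMIs (Tgfb3, Ltbp1 and Ltbp2 did not), and 13.9% of 8812 genes were higher and 15.5% lower (29.4% in all). Mural-like cells were higher in Ltbp3, with 34 UMIs against 3 in endothelial-like cells and a ratio of 28.9 (9.08 to 147). Endothelial-like cells were higher in Ltbp4 by 25.6 (13.9 to 53.7)-fold, in Tgfbr2 by 3.64 (2.59 to 5.26)-fold and in Tgfb2 by 3.22 (2.19 to 4.92)-fold. The ratios were within 2-fold for Tgfb1 at 1.29 (0.89 to 1.84), Tgfbr1 at 1.04 (0.57 to 1.84) and Tgfbr3 at 0.64 (0.42 to 0.95). Ltbp4 was thus higher in the endothelial-like cells of both libraries.

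**Figure D4:**
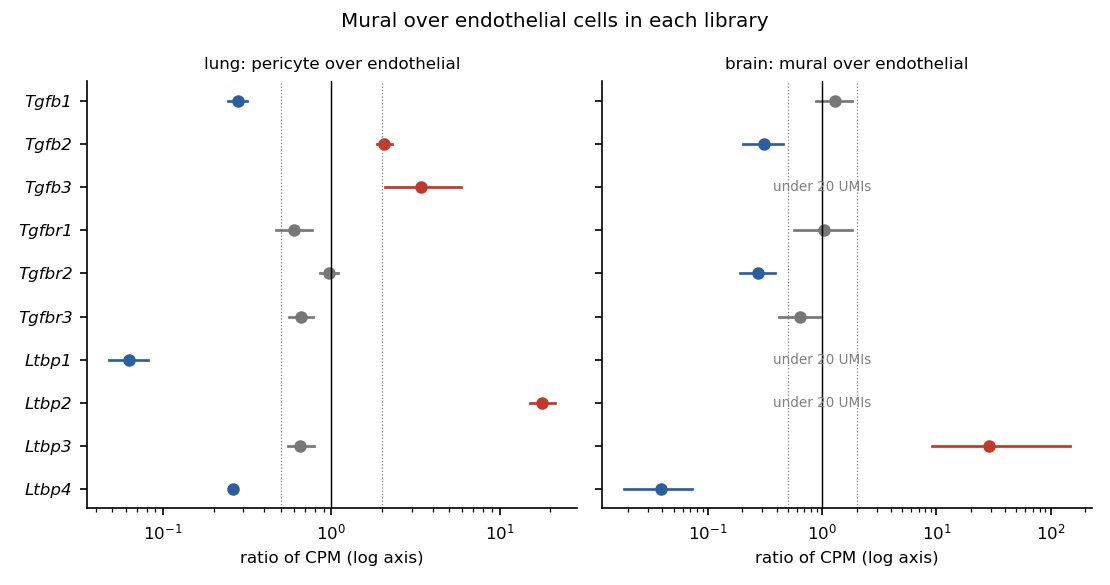
Ratio of CPM of pericyte-like (lung) or mural-like (brain) cells over endothelial-like cells of the same library for each of the 10 members (log axes that differ between panels), with exact 95% counting intervals, the line at 1 and dotted lines at 0.5 and 2. Tgfb2 lies at 2.06 in lung and 0.31 in brain, and Ltbp4 lies below 0.5 in both. Members with fewer than 20 UMIs over both classes are marked as such.

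Between the libraries, lung pericyte-like cells were higher than brain mural-like cells in Tgfb2, Ltbp2 and Ltbp4 and lower in Tgfb1, Tgfbr1 and Ltbp1, where 9.74% of 11823 genes were higher and 13.9% lower (23.6% in all). Brain mural-like cells had 0 Ltbp2 UMIs, which makes lung pericyte-like cells at least 121-fold higher against a floor of 3 UMIs over the class, with a lower interval end of 98.3 without that floor. The ratio was 9.72 (5.28 to 20.3) for Ltbp4 and 4.38 (3.04 to 6.55) for Tgfb2. Brain mural-like cells were higher in Ltbp1 by 2.83 (1.24 to 5.69)-fold on 9 UMIs, in Tgfb1 by 2.51 (1.82 to 3.39)-fold and in Tgfbr1 by 2.04 (1.19 to 3.32)-fold. The Tgfbr1 difference lay under 2-fold once the median log2 ratio of all genes (-0.12) was subtracted, and 5 rather than 6 members then passed.

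Lung endothelial-like cells exceeded brain endothelial-like cells in Ltbp1, Ltbp2 and Ltbp3 and were lower in Tgfbr2, where 12.8% of 10645 genes were higher and 10.5% lower (23.3% in all). Ltbp1 was at least 42.9-fold and Ltbp2 at least 17.2-fold higher, against a floor of 3 UMIs, since brain endothelial-like cells had 0 UMIs of both. The lower ends of their intervals, without that floor of 3 UMIs, were 34.7 and 13.8. Without the cells called doublets, the Ltbp2 ratio was at least 6.64, on 56 rather than 146 UMIs in lung. The lung endothelial-like Ltbp2 level lay below that of T lymphocyte-like cells, and the part of free RNA in it was not tested. The Ltbp3 ratio was 22.3 (7.53 to 109), on 3 brain UMIs. Tgfbr2 was 2.69 (2.31 to 3.12)-fold higher in brain. Ltbp4, at 1.46 (1.34 to 1.59), and Tgfb1, at 1.85 (1.48 to 2.33), were within 2-fold.

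Lung fibroblast-like cells were higher than brain fibroblast-like cells in Tgfb2, Tgfb3, Ltbp2 and Ltbp4 and lower in Tgfbr1 and Tgfbr3, where 9.87% of 11204 genes were higher and 11.6% lower (21.5% in all). A brain fibroblast-like cell had a median of 7 of 10 fibroblast, 4 of 10 astroglia and 2 of 10 mural markers, and the part of RNA from those cells in these values was not tested. The brain class held 67 cells, with 4 UMIs of Tgfb2, 4 of Tgfb3, 3 of Ltbp2 and 9 of Ltbp4. The ratio was 38.2 (20.1 to 83.5) for Ltbp4, 11 (4.27 to 40.4) for Tgfb3, 9.35 (3.63 to 34.4) for Tgfb2 and 6.33 (2.14 to 30.9) for Ltbp2. Brain fibroblast-like cells were higher in Tgfbr3 by 2.49 (1.95 to 3.14)-fold and in Tgfbr1 by 2.17 (1.43 to 3.19)-fold. The Ltbp1 ratio was 1.49 (1.14 to 1.96) and the Ltbp3 ratio 1.44 (1.04 to 2.05). With the 42 cells of the matrix list alone as the lung class, the ratio was 33.2 for Ltbp2, 22.2 for Tgfb2, 18.6 for Ltbp4, 9.05 for Tgfb3 and 2.50 for Tgfbr2, and those of Ltbp1 (0.82) and Ltbp3 (0.91) lay below 1. Brain fibroblast-like cells were then higher in Tgfbr3 by 4.70-fold and in Tgfbr1 by 2.84-fold.

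**Figure D5:**
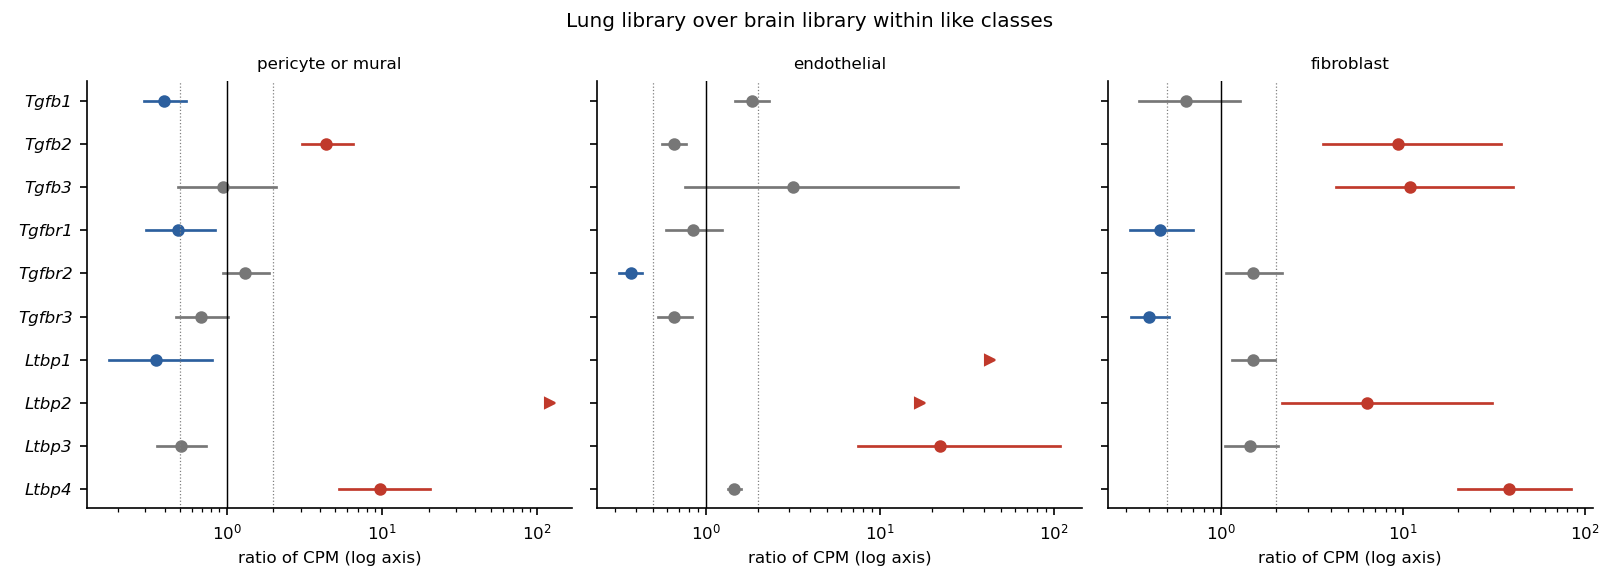
Ratio of CPM of a lung class over the like brain class for each of the 10 members (log axes that differ between panels), with exact 95% counting intervals, the line at 1 and dotted lines at 0.5 and 2. Triangles are lower bounds where the brain class had 0 UMIs, such as 121 for Ltbp2 in mural cells and 42.9 for Ltbp1 in endothelial cells.

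Within the neural cells of the brain library, 6 of the 10 members passed the limit of 20 UMIs, 3 of them were higher in astroglia-like than in neuroblast-like cells and 1 was lower, where 23.9% of 13096 genes were higher and 26.4% lower (50.4% in all). Ltbp1 was higher by 82.5 (51 to 143)-fold, Tgfb2 by 63.9 (35.1 to 129.7)-fold and Ltbp3 by 2.29 (1.8 to 2.9)-fold. Tgfbr1 was 2.94 (2.21 to 3.98)-fold higher in neuroblast-like cells. The astroglia-like Ltbp1 level differed by cluster, with 216 (196 to 239) CPM in cluster 7 (374 cells led by Htra1, Cxcl14 and F3), 58.8 (45 to 75.6) in cluster 6 (237 cells led by Thbs4, Gfap and Myoc), 105 (74.8 to 143) in cluster 4 (199 cells led by Gdf15) and 42 (13.6 to 98) in cluster 8 (46 cells led by Aldoc, Mt1 and Dbx2). Tgfb2 was at 78 (65.7 to 92) CPM in cluster 7 and 86.8 (69.8 to 107) CPM in cluster 6, with overlapping intervals. In activated NSC-like cells Tgfbr1 was at 62.3 (48 to 79.6) CPM, and Ltbp1 rested on 1 UMI and Tgfb2 on 8 UMIs. The 33 neural-like cells of the lung library, which carried glial markers such as Sox10, had 209.5 (147 to 290.0) CPM of Tgfbr3, 134 (84.9 to 201) of Tgfb2, 262 (191 to 350.4) of Ltbp4 and 2 UMIs of Ltbp2.

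The other genes of the pathway were described by 4 lists of 51 genes, none of them a gating marker. Of the genes for matrix storage and activation of latent TGF-β, 18 of 19 passed the UMI limit between pericyte-like and lung fibroblast-like cells, 11 were lower in pericyte-like cells and 2 were higher (14.5% and 17.1% over all genes), with a median log2 ratio of -1.61 against 0.29 over all genes. Decorin (Dcn), a proteoglycan that binds TGF-β, was at 14.2 CPM in pericyte-like and 7301 CPM in lung fibroblast-like cells. Itgb8, a subunit of an integrin that activates latent TGF-β, was 44.5 (16.9 to 166)-fold higher in lung fibroblast-like cells. Adamtsl3, a matrix protein, was 7.64 (6.51 to 9.0)-fold and Itgb1, the common β1 integrin subunit, 3.66 (3.51 to 3.82)-fold higher in pericyte-like cells.

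Of 12 Smads and regulators, 4 were lower and 0 higher in pericyte-like than in lung fibroblast-like cells, where 14.5% of all genes were lower and 17.1% higher. Smad3, a receptor-activated Smad, was at 1.13 against 21.2 CPM. Pmepa1, a feedback inhibitor that TGF-β induces, was at 43.2 against 516 CPM. Of 12 target genes, 6 were lower and 3 higher, with a median log2 ratio of -1.67 against -0.06 over the Smads and regulators. Col1a1, a collagen chain, was 81.4 (78.8 to 84.2)-fold higher in lung fibroblast-like cells, whereas the contractile genes Tagln and Acta2 were 7.32 (6.64 to 8.07)-fold and 3.4 (3.2 to 3.62)-fold higher in pericyte-like cells. Of 8 other receptors and surface modulators, 6 passed the UMI limit, with the coreceptor Eng 3.86 (3.53 to 4.23)-fold and the pseudoreceptor Bambi 2.62 (2.33 to 2.95)-fold higher in pericyte-like cells, and Lrrc32, which holds latent TGF-β at the cell surface, 2.31 (1.69 to 3.17)-fold higher in lung fibroblast-like cells.

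Myofibroblast-like cells exceeded pericyte-like cells in 8 of the 11 target genes that passed the UMI limit, in 5 of 12 Smads and regulators and in 9 of 18 storage and activation genes, against 11.6% of all genes. Pericyte-like cells were higher in 0 of these targets, 0 of the Smads and regulators and 2 of the storage genes, against 10.9% of all genes. Of the receptors and surface modulators, 3 of 6 were higher in pericyte-like cells and 0 were lower, with a median log2 ratio of 0.74. The secreted matrix protein Tgfbi was at 3138 against 21.3 CPM and Thbs1, an activator of latent TGF-β, at 534 against 9.44 CPM. Smad3 was 43.1 (24 to 85.3)-fold and Pmepa1 18.4 (16.6 to 20.4)-fold higher in myofibroblast-like cells. Adamtsl3 was 66.7 (36.2 to 139)-fold and Bambi 3.24 (2.74 to 3.86)-fold higher in pericyte-like cells. The median log2 ratio of pericyte-like over myofibroblast-like cells was -1.60 over the targets and -0.63 over the Smads and regulators, against 0.01 over all genes.

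Against lung fibroblast-like cells, myofibroblast-like cells were higher in 5 and lower in 5 of 12 targets, and higher in 4 of 12 Smads and regulators with 0 lower, where 12.1% of all genes were higher and 10.5% lower. The median log2 ratio was 0.84 over the targets, 0.56 over the Smads and regulators and 0.25 over all genes. Tagln was 33.2 (30.2 to 36.6)-fold, Acta2 10.3 (9.71 to 11)-fold and the inhibitory Smad6 3.26 (2.37 to 4.5)-fold higher, and Col1a1 was 13 (12.7 to 13.4)-fold lower. Of the storage and activation genes, 4 were higher, among them Adamtsl2 by 5.92 (4.22 to 8.44)-fold and the protease Htra1 by 5.02 (4.72 to 5.34)-fold, and 4 were lower.

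More receptor and surface genes were higher in endothelial-like than in mural cells, in both libraries. In lung 5 of 8 such genes were lower and 1 higher in pericyte-like cells, and in brain 4 of 6 were lower and 1 higher in mural-like cells. Over all genes 15.1% were lower and 15.6% higher in lung, and 15.5% and 13.9% in brain. Bambi was 4.62 (3.82 to 5.64)-fold higher in lung pericyte-like cells than in lung endothelial-like cells, and 6.48 (2.87 to 18.1)-fold higher in brain endothelial-like cells than in brain mural-like cells. Smad6 was 79.3 (60.6 to 106)-fold higher in lung endothelial-like cells than in pericyte-like cells. In brain it was 6.41 (2.07 to 32.2)-fold higher in endothelial-like cells, on 3 UMIs in mural-like cells. The integrin subunit Itgb5 was higher in mural cells of both, by 15.1 (10.9 to 21.5)-fold in lung and 79.6 (30.3 to 297)-fold in brain.

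Between libraries, 5 of 15 storage and activation genes were higher and 1 was lower in lung pericyte-like than in brain mural-like cells, and 11 of 16 were higher and 1 was lower in lung than in brain endothelial-like cells. Over all genes 9.74% were higher and 13.9% lower in the first comparison, and 12.8% and 10.5% in the second. Fbn1, the fibrillin that latency proteins bind, had 4031 UMIs in lung pericyte-like cells against 1 in brain mural-like cells, a ratio of 186 (33.3 to 7344). It was 222 (61.2 to 1831)-fold higher in lung than in brain endothelial-like cells and 10.2 (7.66 to 13.9)-fold higher in lung fibroblast-like than in brain fibroblast-like cells. Lung endothelial-like cells had 209 CPM of Col1a1, a fibroblast transcript, and the part of free fibroblast RNA in the lung endothelial levels of matrix genes was not tested. In astroglia-like cells Htra1 was at 2035 CPM against 7.05 CPM in neuroblast-like cells, and Smad2 was 2.8 (2.16 to 3.69)-fold higher in neuroblast-like cells.

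The pattern of each member over the 15 classes of at least 50 cells was compared with that of 12227 other genes by Pearson's r of log2(CPM + 10). Classes of 1 library share depth and free RNA, so these values are descriptions. The genes most like Ltbp2 were Hoxb5 (r = 0.983) and Tbx4 (0.980), transcription factors of which Tbx4 marks lung mesenchyme. Those most like Tgfbr2 were Ifitm3 (0.972) and Ahnak (0.961), and those most like Ltbp4 were Klf6 (0.95) and Klf4 (0.921). Tgfb3 was most like Nnmt (0.943) and Adcy7 (0.94), Tgfbr3 most like Gadd45b (0.94) and Ahnak (0.919), and Tgfb1 most like Mob2 (0.937) and Wasf2 (0.929). The values were lower for Tgfb2 with Stom (0.90) and Filip1 (0.898), for Ltbp3 with Cebpb (0.871) and Pdzrn3 (0.857), for Ltbp1 with S100a6 (0.802) and Fuca1 (0.799), and for Tgfbr1 with Ppp1cc (0.717) and Dip2c (0.715).

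Among the 45 pairs of members, r was highest for Tgfbr2 with Tgfbr3 (0.880), followed by Tgfb3 with Ltbp3 (0.802) and Tgfb3 with Ltbp2 (0.798). It was lowest for Tgfb2 with Tgfbr1 (-0.43). Tgfbr1 with Tgfbr2, the chains of the signalling receptor, gave -0.20 over the same classes.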

How the data were processed

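Nestin-GFP+ cells sorted from brain and lung (1 library each, 10x Chromium 3′ v3 chemistry) were sequenced and processed by the authors with bcl2fastq 2.19.1.403, UMI-tools 1.0.0, STAR 2.7.1a and featureCounts 1.6.4 on mm10, as listed in the processing notes of the submitters. The deposited values are UMI counts per gene and cell, with zeros not listed and no normalization. The annotation version, the rule for calling cells and the strand setting of counting are not given in the sources used here. Libraries held 26221173 UMIs in 4640 cells (brain) and 36816962 UMIs in 5981 cells (lung).

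Cells with more than 200 and fewer than 4000 genes and under 40% mitochondrial counts were kept (19518081 and 31797069 UMIs), after the filter described by the authors, and Scrublet (scanpy 1.11.5, expected rate 0.06) marked 1.06% and 1.32% of them as doublets, which were left in. Each cell was gated to the marker list with the highest mean z-score (capped at 3), given at least 3 detected markers, a score of at least 0.3 and a lead of at least 0.2. Clusters used the variable genes among the top 2000 that were in neither the members nor the pathway lists (1975 in brain, 1978 in lung), 20 principal components, 20 neighbours and a resolution of 0.8. UMIs were summed per class. Intervals are exact Poisson for levels, exact conditional binomial for ratios and exact binomial for shares of cells, at 95%, and cover counting error only. A class at 0 was set to a floor of 3 UMIs. Python 3.11.15, numpy 2.4.6, scipy 1.17.1 and pandas 2.3.3 were used. The ratio code was run on simulated counts with counting error only. That run cannot show how the intervals behave with variation between cells or libraries. The members and lists were chosen with earlier results of these data known, and the gate rule was set after marker values were seen. The genes named were all 10 members and, from the pathway lists, at most the 2 highest and 2 lowest ratios past 2-fold in each group and comparison. Alternatives changed the fold, the filters, the gates and the cells entering the classes. Some values are not reported here.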

Additional observations from a re-analysis of the deposited data

Results flagged for a closer look

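The ratio of mural over endothelial cells lay on opposite sides of 1 in the lung and brain libraries, with counting intervals that excluded 1 in both, for Tgfb2 and Ltbp3. Tgfb1 and Tgfbr1 also lay below 1 in lung and above 1 in brain, but their brain intervals held 1 (0.89 to 1.84 and 0.57 to 1.84). For Tgfb2 it was 2.06 (1.86 to 2.28) in lung and 0.31 (0.20 to 0.46) in brain, with ranges of 1.82 to 2.28 and 0.28 to 0.32 over 11 alternatives. For Ltbp3 it was 0.66 (0.55 to 0.78) in lung, within 2-fold, and 28.9 (9.08 to 147) in brain, on 3 endothelial-like UMIs, with ranges of 0.62 to 0.68 and 19.1 to 30.5. The difference between libraries was not tested for either gene, because each library is 1 sample, and tissue and library cannot be told apart. The lung mural cells of these ratios are those of the pericyte-like gate. Lung cluster 2, led by Rgs5 and mostly ungated, had less Tgfb2 than lung endothelial-like cells. No alternative used that cluster as the mural class.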

How the results depend on the processing

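No paired analysis was possible because each tissue is 1 library and no result comes from a test across samples. The number of members past the fold stayed within 1.5 times its value in 119 of 123 counts under an alternative. The other 4 changed the fold itself: at 1.5-fold, 9 rather than 5 members passed between myofibroblast-like and lung fibroblast-like cells and 7 rather than 4 between the endothelial-like classes. At 3-fold, 3 rather than 6 passed between lung pericyte-like and brain mural-like cells and 2 rather than 4 between astroglia-like and neuroblast-like cells. Of 971 member ratios under an alternative 52 moved by more than the counting interval. No ratio that passed 2-fold changed its side of 1, whereas 13 values of 7 ratios within 2-fold did, with reported ratios of 0.94 to 1.49 and values of 0.81 to 1.03. Of the 52 that moved, 26 came from the matrix list cells alone, which are given in the 3 comparisons with lung fibroblast-like cells, and the ranges here leave that setting out. Ratios near 2-fold crossed it under some settings: Tgfb2 in pericyte-like over lung endothelial-like cells (1.82 to 2.28), Tgfbr1 (0.43 to 0.53) and Ltbp3 (0.49 to 0.55) in pericyte-like over brain mural-like cells, Tgfb3 (1.91 to 2.13) and Tgfb1 (1.72 to 2.14) in myofibroblast-like over lung fibroblast-like cells, Tgfbr1 (0.39 to 0.51), Ltbp1 (1.22 to 2.17) and Ltbp3 (1.38 to 2.05) in lung over brain fibroblast-like cells, and Tgfb3 (1.66 to 4.35) in lung over brain endothelial-like cells. Other ratios moved by over 1.5 times. The Ltbp2 ratio of pericyte-like over lung endothelial-like cells ranged from 11.5 to 44.2, and that of lung over brain endothelial-like cells from 6.64 to 28.0. In the same comparisons Tgfb3 ranged from 2.68 to 5.64 and Ltbp3 from 14.4 to 25.7, and in lung over brain fibroblast-like cells Tgfb2 ranged from 8.75 to 17.6 and Tgfb3 from 10.8 to 20.7. In brain mural-like over endothelial-like cells Ltbp3 ranged from 19.1 to 30.5 and Ltbp4 from 0.024 to 0.039. The causes were not tested. Shares of cells with a UMI moved in 115 of 140 values. The settings with cycling cells left out, the shared barcodes left out, the gate with a higher score and lead, and the adventitial or matrix list alone were chosen after seeing the data. Few cells limit the brain mural-like (173), brain fibroblast-like (67) and lung T lymphocyte-like (107) classes.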

Other observations

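The macrophage-like classes, too small to enter a comparison, held high levels of the signalling receptor. In brain (44 cells) Tgfbr1 was at 699 (586 to 827) CPM and Tgfbr2 at 192 (135 to 264) CPM. In lung (17 cells) Tgfbr1 was at 227 (146 to 338) CPM and Tgfbr2 at 246 (161 to 361) CPM. Microglia and macrophages are known to depend on TGF-β for their mature state.

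A cluster of 27 lung cells of the matrix list, led by Limch1, Cpm and Adh1, had 194 (136 to 269) CPM of Ltbp2, within the interval of T lymphocyte-like cells, and 259 (191 to 343) CPM of Tgfb2.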
